A study of Mus musculus with 18 samples.

Results

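The 5 genes described here make up the core of the plasminogen activator system: Plau (urokinase), Plat (tissue plasminogen activator), Plaur (the urokinase receptor uPAR) and the serpin inhibitors Serpine2 (protease nexin-1) and Serpinb2 (plasminogen activator inhibitor-2). They were chosen by name, with earlier results of these data known, and were found by their Ensembl identifiers among the 55335 genes of each count table. RNA was measured in O9-1 cells, a neural crest cell line isolated from the head of early mouse embryos, on d2.5 and d5 of culture in osteoblast differentiation medium. The cultures were of 3 kinds, with 3 libraries each per day. Ctrl+vehicle cells received a scrambled control siRNA and no FGF2, Ctrl+FGF2 cells the same siRNA with FGF2, and Y/T dKD+FGF2 cells siRNA pools against Yap and Taz with FGF2. All 18 libraries came from wildtype cells of the same line, so the knockdown was transient and partial. No culture with the knockdown and without FGF2 was analysed here, and the knockdown is therefore seen only in the presence of FGF2. The labels give the day as the batch, so day and batch cannot be told apart in a level compared across days. They do not say that replicates came from separate cultures, so p-values measure the spread between these libraries, which may be technical.

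Plasminogen activators are secreted serine proteases that cut the zymogen plasminogen into plasmin, a broad protease that dissolves fibrin and degrades pericellular matrix. Plau acts mainly at the cell surface, where Plaur, a receptor held by a lipid anchor, concentrates it, while Plat is best known for fibrin-bound activity in blood vessels and for roles in the nervous system. Serpins block these enzymes by a suicide mechanism: Serpine2 binds heparan sulfate at the cell surface and inhibits thrombin as well as both activators, and Serpinb2, a largely intracellular clade B serpin that is abundant in monocytes and keratinocytes, inhibits Plau above all. Spent complexes of protease and serpin are taken up through Lrp1, an endocytic receptor. Neural crest cells and osteoblast lineage cells are known to make plasminogen activators during migration and matrix remodelling.

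In what follows, vehicle, FGF2 and knockdown stand for these 3 kinds of culture, and the knockdown always includes FGF2. Levels are CPM, that is, a gene's reads relative to the library's total, scaled for library composition over all 18 libraries. A gene was called changed when its Benjamini-Hochberg adjusted p in edgeR's quasi-likelihood test over all tested genes was under 0.05. Gene counts were between 10377151 and 14698525 per library. The siRNAs lowered their targets: Yap1, which encodes Yap, was at 129 ± 2.80 CPM (SD, n = 3) with FGF2 and 66.7 ± 2.45 with the knockdown at d2.5, and at 153 ± 5.96 and 70.5 ± 3.40 at d5. Wwtr1, which encodes Taz, was at 222 ± 2.96 and 136 ± 5.97 CPM at d2.5, and at 215 ± 2.87 and 124 ± 3.24 at d5. All 7 neural crest and mesenchyme markers were present, with a summed level between 1597 and 3095 CPM. Of the 6 macrophage and blood markers Lyz2 and Tyrobp were at 0 in all libraries, while Cd68 and Csf1r were present at low levels. Of the 4 endothelial markers Cdh5 was at 0 in all libraries, whereas Pecam1 stood at 3.51 ± 0.627 CPM (SD, n = 3) with vehicle at d2.5 and changed with FGF2 (log2 -1.55, adjusted p = 1.32e-06 at d2.5, and 1.40, adjusted p = 0.00186 at d5), and the 4 together summed to 0.603 to 3.87 CPM. Its part in the results was not tested. In bulk RNA, fewer cells of a type and less RNA per cell cannot be told apart.

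All 5 genes changed with FGF2 at d2.5, but the directions were mixed, and the pattern on d5 was different. At d2.5, FGF2 raised Plaur, Plat and Serpinb2 and lowered Serpine2 and Plau. Calls were common on that day: 67.6% of the 13677 tested genes were called, 33.5% higher and 34.1% lower, so the count of 5 says little by itself. At d5, FGF2 raised Serpine2 and lowered Plat and Plau, 3 of 5 genes against 47.2% of 13304 genes (23.5% higher and 23.7% lower). For scale, the median absolute log2 fold change over all tested genes was 0.35 at d2.5 and 0.22 at d5.

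The knockdown under FGF2 raised Plat, Serpinb2 and Serpine2 and lowered Plaur at d2.5, so 4 of 5 genes were called against 24.5% of all genes (10.8% higher and 13.6% lower). At d5 it raised Serpinb2 and Plaur, 2 of 5 genes against 31.7% (15.6% higher and 16.1% lower). Knockdown cells also differed from vehicle cells in 4 of 5 genes at d2.5 (69.8% of all genes) and in 5 of 5 at d5 (41.8%). Serpinb2 passed the filter on low counts at d5 only through the knockdown libraries, where it was high, so its calls carry no weight in either count of d5. These comparisons share their FGF2 or vehicle libraries and are not independent of each other.

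The effects were also compared between the days. When the FGF2 effect at d2.5 was subtracted from that at d5 in a fit of all 18 libraries, 3 of 5 genes differed (Plaur, Plat and Serpine2), against 60.9% of 14198 genes, a share near that of all genes. For the knockdown effect, 3 of 5 genes differed between the days (Plaur, Plat and Serpinb2), against 20.9%.

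**Figure D1:**
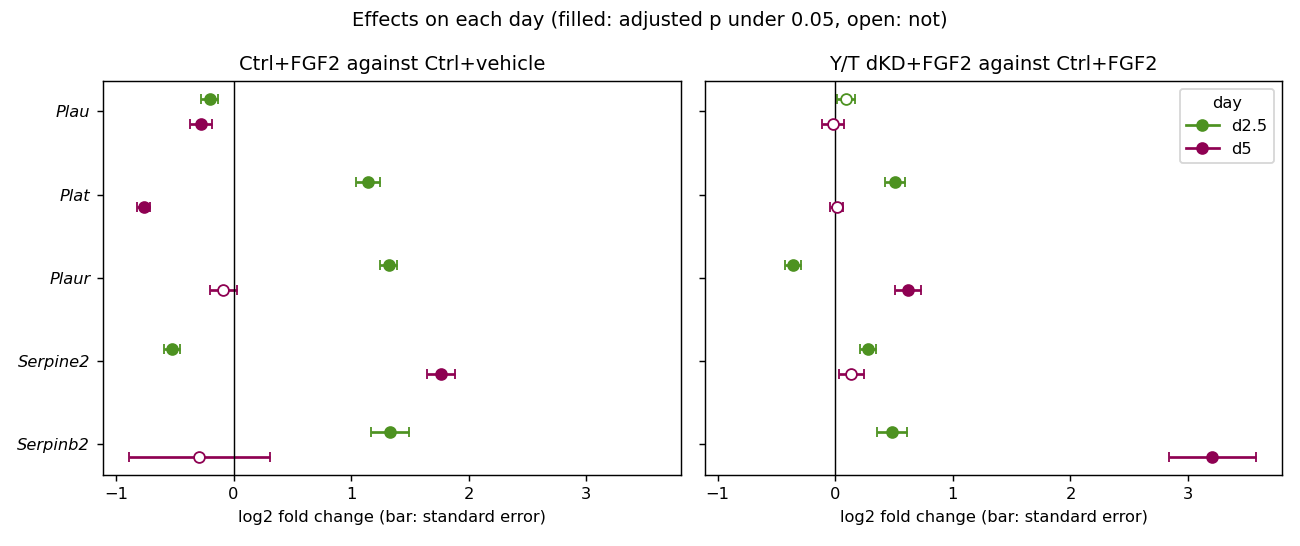
Log2 fold change (horizontal axis) of each gene with its standard error, for Ctrl+FGF2 against Ctrl+vehicle (left) and Y/T dKD+FGF2 against Ctrl+FGF2 (right), at d2.5 (green) and d5 (purple). Filled points have an adjusted p under 0.05. Plat lies at 1.15 on d2.5 and at -0.77 on d5 under FGF2, Serpine2 at -0.53 and 1.76, and Serpinb2 under knockdown at d5 at 3.21, where it was tested only through its knockdown libraries.

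Of the activators, Plau, encoded at chr14:20836660-20843385 on the plus strand of GRCm38 (ENSMUSG00000021822.3), varied least. In the replicates of d2.5 it stood at 30.4, 27.0 and 26.3 CPM with vehicle, 26.6, 23.3 and 23.5 with FGF2, and 27.7, 24.7 and 26.2 with the knockdown. At d5 it stood at 22.8, 26.5 and 27.0 CPM with vehicle, 21.7, 18.6 and 22.5 with FGF2, and 22.2, 20.1 and 19.6 with the knockdown. The vehicle and FGF2 libraries overlapped at d2.5 and lay close together at d5. Plau fell by 0.20 on the log2 scale with FGF2 at d2.5 (SE 0.0723, adjusted p = 0.0138) and by 0.28 at d5 (SE 0.0904, adjusted p = 0.0178). Both calls are fragile: DESeq2 gave adjusted p = 0.0717 at d2.5 and 0.0501 at d5. At d2.5 the call was lost without Ctrl+vehicle replicate 1 (0.102) or without Ctrl+FGF2 replicate 2 (0.0675) or 3 (0.0742), and at d5 without Ctrl+vehicle replicate 2 (0.0519) or 3 (0.0806) or without Ctrl+FGF2 replicate 2 (0.10). The knockdown gave log2 fold changes of 0.09 at d2.5 (adjusted p = 0.412) and -0.02 at d5 (adjusted p = 0.894), and the FGF2 and knockdown libraries overlapped on both days.

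Plat, at chr8:22757727-22782844 on the plus strand (ENSMUSG00000031538.6), moved with FGF2 in opposite directions on the days. At d2.5 it stood at 16.6, 9.55 and 13.0 CPM with vehicle, 29.4, 29.4 and 28.3 with FGF2, and 42.6, 40.7 and 41.4 with the knockdown, with no overlap between the groups. FGF2 raised it 2.21-fold (log2 1.15, SE 0.101, adjusted p = 1.69e-11) and the knockdown added a further 1.42-fold (log2 0.51, SE 0.0839, adjusted p = 3.87e-05). At d5 it was far higher everywhere, at 162, 156 and 154 CPM with vehicle, 84.0, 98.2 and 93.0 with FGF2, and 91.4, 96.8 and 90.7 with the knockdown. There the vehicle libraries were the highest, and the other groups overlapped. Plat was 1.70-fold lower with FGF2 at d5 (log2 -0.77, SE 0.0512, adjusted p = 2.05e-09), and the knockdown gave a log2 fold change of 0.01 (SE 0.0535, adjusted p = 0.891). The FGF2 effect at d5 minus that at d2.5 was -1.94 (SE 0.123, adjusted p = 3.17e-14), and the corresponding difference for the knockdown was -0.50 (SE 0.110, adjusted p = 0.00136). Between the days the mean of Plat was 12.1-fold higher at d5 with vehicle, 3.16-fold with FGF2 and 2.24-fold with the knockdown. The summed level of 6 osteoblast markers (Runx2, Sp7, Alpl, Col1a1, Ibsp and Bglap) moved across the same groups: it was 13247 to 13407 CPM with vehicle, 2299 to 2426 with FGF2 and 2163 to 2299 with the knockdown at d2.5, and 31098 to 33113, 15858 to 17613 and 21893 to 23256 at d5. This sum was nearly all Col1a1, a collagen chain, at 12636, 2203 and 2009 CPM on average at d2.5 and 31912, 16646 and 21837 at d5, in the order vehicle, FGF2 and knockdown. The other markers did not all run with it. With the knockdown at d2.5, Sp7 (log2 0.46, adjusted p = 0.00976) and Ibsp (log2 0.93, adjusted p = 3.62e-15) rose as Plat did while Col1a1 fell, and at d5 the means of Runx2 and Sp7 were lowest with vehicle. With FGF2 at d2.5 all 5 tested markers were called lower (34.1% of all genes) while Plat rose, with Alpl tested only through the vehicle libraries. With FGF2 at d5, 4 markers were called lower and 2 higher (23.7% and 23.5% of all genes), while Plat fell. With the knockdown at d5 all 6 were called higher (15.6% of all genes), while Plat gave a log2 fold change of 0.01. The part of differentiation in the level of Plat was not tested.

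**Figure D2:**
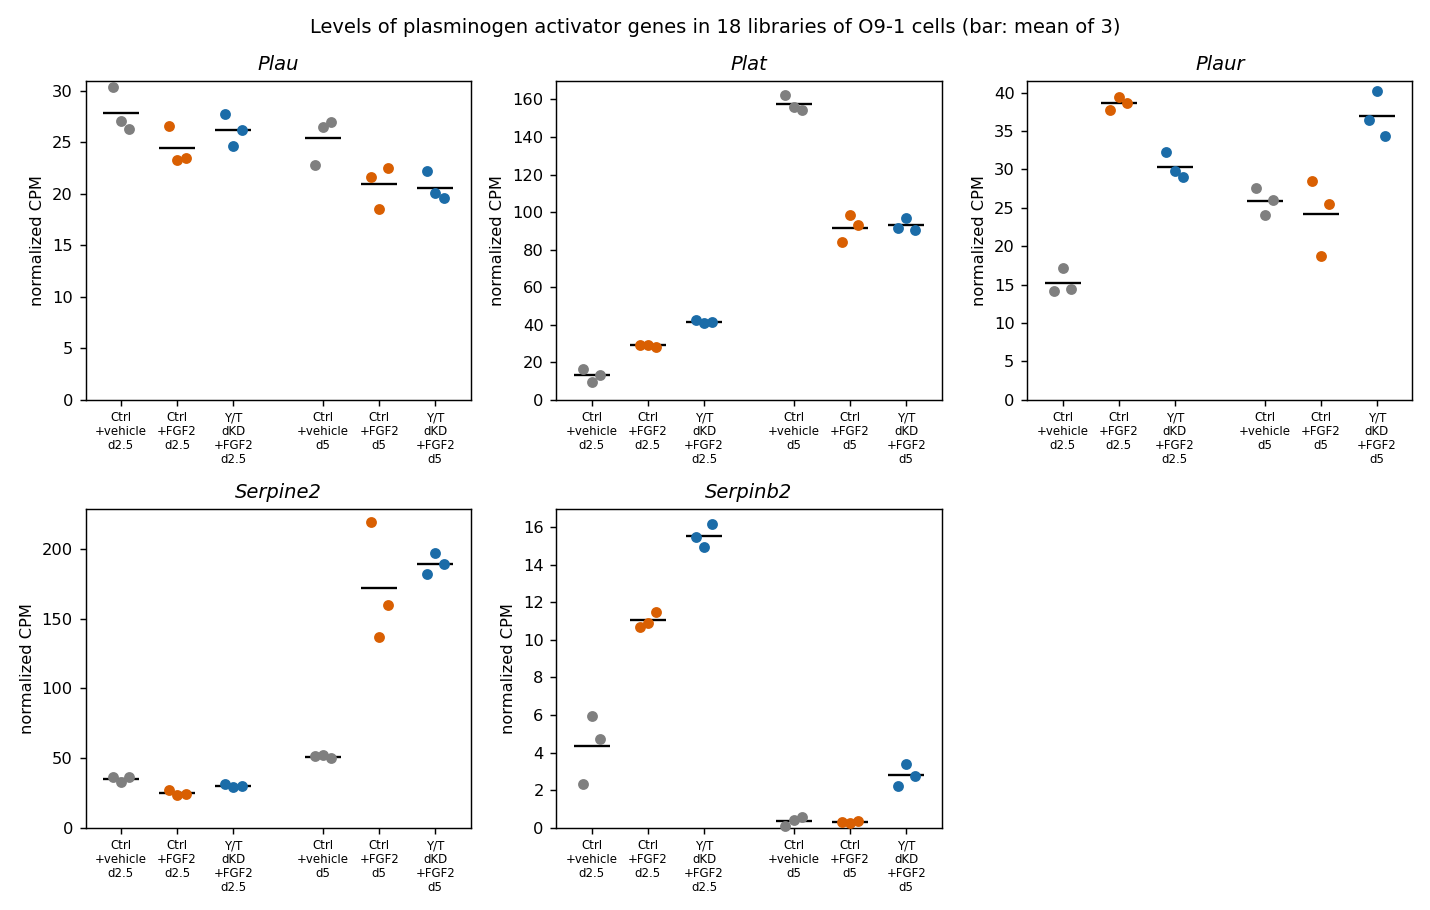
Scaled CPM (vertical axis, from 0) of the 5 genes in each of 18 libraries, by group and day. Points are libraries and bars are means of 3. The Plat means with vehicle are 13.1 CPM at d2.5 and 158 at d5, and the highest Serpine2 means are in the cultures with FGF2 at d5 (172 and 189 CPM). All Serpinb2 means of d2.5 lie above those of d5, but the vehicle libraries of d2.5 and the knockdown libraries of d5 overlap.

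Plaur and Serpinb2 were both raised by FGF2 at d2.5, while the knockdown on that day moved them in opposite directions. The 250 bases upstream of their start sites are shown to set the pair side by side, from RefSeq's promoter table on GRCm38.p6. Windows were held for 3 of the 5 genes (Plaur, Serpine2 and Serpinb2). Matches to 4 motifs were searched on both strands: TGANTCA (AP-1, the Fos and Jun factors), GGAATG (TEAD, the DNA-binding partners of Yap and Taz), TGACGTCA (CRE) and AGGAAG (PEA3, the ETS factors that FGF signalling induces). Capitals mark a match. The Plaur window lies at chr7:24462233-24462482 on the plus strand and the Serpinb2 window at chr1:107511173-107511422 on the plus strand. Serpinb2 has 2 windows, and the one for the start site at chr1:107511510 is not printed.
Plaur: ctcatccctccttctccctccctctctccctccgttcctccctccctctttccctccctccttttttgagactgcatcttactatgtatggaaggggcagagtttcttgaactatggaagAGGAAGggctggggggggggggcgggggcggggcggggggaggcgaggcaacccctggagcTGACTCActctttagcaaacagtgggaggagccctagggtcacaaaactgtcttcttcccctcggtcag
Serpinb2: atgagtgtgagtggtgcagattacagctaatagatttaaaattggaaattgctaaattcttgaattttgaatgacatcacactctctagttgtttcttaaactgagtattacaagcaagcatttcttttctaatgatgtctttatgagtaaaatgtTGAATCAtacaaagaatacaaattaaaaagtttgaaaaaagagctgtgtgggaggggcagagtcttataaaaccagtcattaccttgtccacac
The Plaur window holds TGACTCA from 69 to 63 bases before the start and AGGAAG from 130 to 125 bases before it. The printed Serpinb2 window holds TGAATCA from 94 to 88 bases before the start, and the window not printed holds it from 181 to 175 bases before its own start. The AP-1 letters are found in 6.75% of the 32851 RefSeq windows of this length, and the PEA3 letters in 29.5%. Serpine2 held only the PEA3 letters. The TEAD letters (12.6% of all windows) and the CRE letters (1.55%) were in none of the windows of these genes. A match is a run of letters and not a binding site, and no binding was measured in these libraries.

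Plaur, the receptor, at chr7:24462484-24475968 (ENSMUSG00000046223.10), showed its lowest level in vehicle cells at d2.5. It stood at 14.2, 17.2 and 14.4 CPM with vehicle, 37.8, 39.4 and 38.7 with FGF2, and 32.2, 29.8 and 29.1 with the knockdown, and the 3 groups did not overlap. FGF2 raised it 2.5-fold (log2 1.32, SE 0.0727, adjusted p = 2.0e-16). The knockdown lowered it 1.28-fold (log2 -0.36, SE 0.0658, adjusted p = 0.000155), and knockdown cells remained 1.95-fold above vehicle cells (log2 0.96, SE 0.0773, adjusted p = 1.79e-12).

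At d5 Plaur stood at 27.5, 24.1 and 26.0 CPM with vehicle, 28.5, 18.7 and 25.5 with FGF2, and 36.5, 40.2 and 34.3 with the knockdown. The FGF2 libraries spread on both sides of the vehicle libraries, replicate 2 being the lowest, and all knockdown libraries lay above both. The FGF2 effect was -0.09 (SE 0.115, adjusted p = 0.565). The knockdown now raised Plaur 1.53-fold (log2 0.62, SE 0.109, adjusted p = 0.000272), and by 0.45 on the log2 scale without Ctrl+FGF2 replicate 2 (adjusted p = 0.000436). The knockdown effect at d5 minus that at d2.5 was 0.97 (SE 0.131, adjusted p = 2.44e-06), with calls in opposite directions on the days, and the FGF2 effect differed by -1.43 (SE 0.142, adjusted p = 5.60e-10).

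Serpine2, at chr1:79794197-79861180 on the minus strand (ENSMUSG00000026249.10), is the gene with the largest FGF2 response at d5 among the 5. At d2.5 it stood at 36.4, 33.0 and 36.1 CPM with vehicle, 26.8, 23.3 and 23.7 with FGF2, and 31.3, 29.3 and 29.5 with the knockdown. FGF2 lowered it 1.44-fold (log2 -0.53, SE 0.0661, adjusted p = 2.99e-08). The knockdown libraries lay between the other groups with no overlap, 1.21-fold above FGF2 (log2 0.28, SE 0.0694, adjusted p = 0.00333). In the fit of all 18 libraries, which takes the spread from both days, that knockdown call was lost (adjusted p = 0.128), as was the difference from vehicle (log2 -0.25, adjusted p = 0.00138 within d2.5 and 0.113 in the fit of 18).

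At d5 Serpine2 stood at 51.1, 52.1 and 49.7 CPM with vehicle, 219, 137 and 160 with FGF2, and 182, 197 and 189 with the knockdown. Both groups with FGF2 lay far above vehicle, and the FGF2 libraries enclosed those of the knockdown. FGF2 raised it 3.39-fold (log2 1.76, SE 0.119, adjusted p = 2.34e-09). Without Ctrl+FGF2 replicate 1, the highest library, the log2 fold change was 1.55 (SE 0.0620). The knockdown effect of 0.14 missed the threshold with all libraries (SE 0.104, adjusted p = 0.353), but was 0.35 without that replicate (adjusted p = 7.71e-05), so this library decides the call. The FGF2 effect differed between the days by 2.26 (SE 0.162, adjusted p = 4.66e-13), from a fall to a rise. The difference of the knockdown effects was -0.15 (adjusted p = 0.579).

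Serpinb2, at chr1:107511423-107535478 on the plus strand (ENSMUSG00000062345.10), was the gene whose level dropped to a few reads per library in the control groups of d5. It overlaps Serpinb10 on the same strand, which had 0 counts in all 18 libraries. At d2.5 it stood at 2.35, 5.94 and 4.71 CPM with vehicle, 10.7, 10.9 and 11.5 with FGF2, and 15.5, 14.9 and 16.2 with the knockdown. The 3 groups formed separate steps. FGF2 raised it 2.51-fold (log2 1.33, SE 0.161, adjusted p = 1.42e-08) and the knockdown a further 1.40-fold (log2 0.48, SE 0.128, adjusted p = 0.00583). DESeq2 gave the same size for the knockdown, a log2 fold change of 0.49, but did not call it (adjusted p = 0.204). Against vehicle, knockdown cells were 3.51-fold higher (log2 1.81, SE 0.154, adjusted p = 6.72e-12).

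At d5 Serpinb2 had 1, 5 and 6 reads in the vehicle libraries, 3, 3 and 4 with FGF2, and 26, 41 and 27 with the knockdown. In CPM these were 0.101, 0.417 and 0.539, then 0.276, 0.244 and 0.359, then 2.21, 3.41 and 2.75. Every knockdown library stood above every control library. The summed counts, 94 against 10, gave a ratio of 9.59 to FGF2 after scaling (95% interval 4.99 to 20.7, counting error only), and 94 against 12 gave 7.71 to vehicle (4.21 to 15.5). Because the gene entered the fit of d5 only through the knockdown libraries, the log2 fold changes there, 3.21 for the knockdown and 2.92 against vehicle, are given as values with no p. In the fit of all 18 libraries, which it entered through the libraries of d2.5 as well, the knockdown gave 3.22 (SE 0.459, adjusted p = 1.96e-06) and the difference from vehicle was 2.91 (SE 0.442, adjusted p = 3.40e-06). For FGF2 the ratio was 0.804 (0.311 to 2.03), so a difference between these controls was not detectable at this depth.

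The knockdown effect on Serpinb2 was larger at d5 than at d2.5 by 2.73 on the log2 scale (SE 0.498, adjusted p = 0.000163). The absolute level was nonetheless much lower at d5: the mean of Serpinb2 at d2.5 was 12.3 times that at d5 with vehicle, 37.7 times with FGF2 and 5.57 times with the knockdown, with no test since day and batch coincide. The difference of the FGF2 effects was -1.65 (SE 0.797) and missed the threshold (adjusted p = 0.0756). It passed with DESeq2 (0.0321), without the filter on low counts (0.0337), without Ctrl+vehicle replicate 2 of d2.5 (0.0183) and without Ctrl+vehicle replicate 1 of d5 (0.0288). Because Serpinb2 and Plaur are abundant in myeloid cells, their markers were examined. The 6 macrophage and blood markers summed to 2.51 to 3.86 CPM with vehicle at d5, 2.76 to 3.91 with FGF2 and 4.40 to 5.50 with the knockdown. Cd68, a lysosomal protein, was at 2.02 ± 0.615 CPM with FGF2 and 4.33 ± 0.369 with the knockdown (SD, n = 3), Csf1r, a growth factor receptor of macrophages, at 1.17 ± 0.197 and 0.789 ± 0.265, and Ptprc at or below 0.163 in every library. At d2.5 the same sum was 1.93 to 2.52 CPM with vehicle, 1.38 to 1.60 with FGF2 and 0.911 to 1.5 with the knockdown. Epithelial and keratinocyte markers (Epcam, Krt5, Krt14 and Cdh1) summed to 4.41 to 5.61 CPM with vehicle at d2.5, 1.20 to 2.04 with FGF2 and 1.48 to 2.40 with the knockdown, and to at most 0.814 CPM at d5. Within that sum Krt14 ran from 4.40 ± 0.569 CPM with vehicle to 0.144 ± 0.146 with FGF2 and 0.0276 ± 0.0478 with the knockdown at d2.5, whereas Epcam ran the other way, as Serpinb2 did, at 0.255 ± 0.0223, 1.13 ± 0.348 and 1.58 ± 0.377 (SD, n = 3), and was called higher with FGF2 (log2 2.08, adjusted p = 6.41e-05). The part of these cell types in the levels of Serpinb2 and Plaur was not tested.

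Ordered by mean level, the groups ran differently for each gene. For Plau, neighbours in the order overlapped at every step but that from FGF2 at d5 (20.9 ± 2.10 CPM, SD, n = 3) to FGF2 at d2.5 (24.4 ± 1.84). For Plat, the order was vehicle (13.1 ± 3.54), FGF2 (29.0 ± 0.641) and knockdown (41.5 ± 0.954) at d2.5, then FGF2 (91.7 ± 7.18), knockdown (92.9 ± 3.36) and vehicle (158 ± 4.06) at d5, with overlap only between the 2 groups with FGF2 at d5. For Plaur, vehicle at d2.5 was lowest (15.3 ± 1.70), and FGF2 at d2.5 (38.6 ± 0.849) and knockdown at d5 (37.0 ± 2.98) were highest and overlapped. Serpine2 ran from 24.6 ± 1.89 CPM with FGF2 at d2.5 to 189 ± 7.61 with the knockdown at d5, and Serpinb2 from 0.293 ± 0.0594 CPM with FGF2 at d5 to 15.5 ± 0.629 with the knockdown at d2.5. The FGF2 cells with control siRNA held the lowest mean of Serpine2 at d2.5 and the lowest mean of Serpinb2 at d5. For Serpinb2 this was 10 reads against 12 with vehicle, and the libraries of the 2 groups overlapped.

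To compare genes with each other, levels were divided by the length of the longest protein-coding transcript, giving CPM per kilobase. On this scale the most abundant of the 5 differed between the groups. In vehicle cells at d2.5 it was Serpine2 (15.9 ± 0.836 CPM per kilobase, SD, n = 3), ahead of Plau (11.9 ± 0.930). In FGF2 and knockdown cells at d2.5 it was Plaur (25.7 ± 0.564 and 20.2 ± 1.10). In vehicle cells at d5 it was Plat (62.4 ± 1.61), and in both groups with FGF2 at d5 it was Serpine2 (77.8 ± 19.2 and 85.6 ± 3.44). With the union of all annotated exons as length, the first place with vehicle at d2.5 passed to Plau (11.8, against 4.24 for Serpine2), and the other first places were unchanged. Serpinb2 was lowest in every group with the coding transcript as length, but with the union of exons Serpine2 was lower at d2.5 with FGF2 (2.97 against 4.70) and with the knockdown (3.63 against 6.61), and Plat was just lower with FGF2 (4.65).

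Per kilobase, Plat made up 29.9 ± 4.69% (SD, n = 3) of the summed level of the activators Plau and Plat with vehicle at d2.5, 52.5 ± 1.67% with FGF2 and 59.5 ± 0.881% with the knockdown. At d5 the shares were 85.2 ± 1.46%, 80.2 ± 2.55% and 80.7 ± 1.29%. The libraries of the 3 groups did not overlap at d2.5, and at d5 those with FGF2 lay below vehicle and overlapped each other. No test was run on the shares. They do not depend on the scaling between libraries but do depend on length: with the union of exons they were 14.9%, 31.1% and 37.6% at d2.5 and 70.1%, 62.4% and 63.1% at d5, lower throughout and in the same order.

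**Figure D3:**
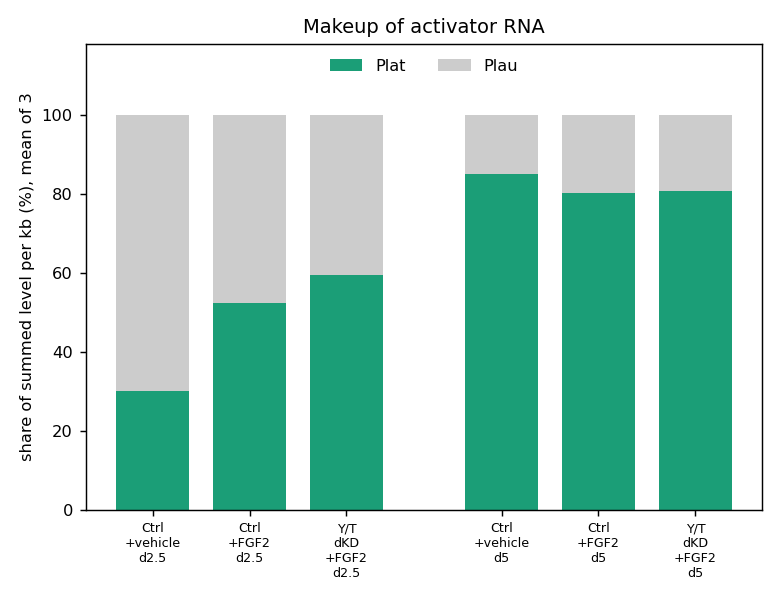
Stacked bars of the mean share (vertical axis, percent of the summed level per kilobase of the longest protein-coding transcript, 3 libraries per group) of the activators Plat and Plau. The Plat share goes from 29.9% with vehicle at d2.5 to 85.2% at d5, and is 80.2% with FGF2 at d5.

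Other genes of the system were taken from 8 hand-made lists with 77 genes, of which 41 passed the filter on low counts at d2.5 and 43 at d5. With FGF2, 13 rose and 22 fell at d2.5, and 15 rose and 18 fell at d5. With the knockdown, 7 rose and 11 fell at d2.5, and 14 rose and 18 fell at d5. The share called was 85.4% and 76.7% with FGF2 at d2.5 and d5, against 67.6% and 47.2% of all tested genes, and 43.9% and 74.4% with the knockdown, against 24.5% and 31.7%. Their median log2 fold changes were -0.19 and -0.01 with FGF2 and -0.05 and -0.01 with the knockdown, against medians of 0.00, 0.02, 0.00 and 0.00 over all tested genes. Serpinb1a at d2.5 and Spint2 and Hgf at d5 passed the filter only with the libraries of 1 group, where each was high. The calls of these genes there carry no weight in the counts and shares above. Plg, which encodes plasminogen itself, had 1 count in 1 library and 0 in the other 17, so RNA for the substrate of the activators was at the limit of detection. Serpina5, A2m and Cpb2 were at 0 in all libraries.

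Serping1 (C1 inhibitor, a serpin that blocks complement and kallikrein) fell with FGF2 at d2.5 from 42.4 ± 3.22 to 5.82 ± 0.416 CPM (SD, n = 3), a log2 fold change of -2.87 (adjusted p = 9.84e-23), and rose at d5 (log2 0.61, adjusted p = 5.22e-06). The plasminogen-binding proteins S100a10 and Anxa2, which form a receptor complex at the cell surface, both rose with FGF2 at d2.5 (log2 0.84 and 0.23, adjusted p = 2.11e-20 and 1.54e-08). Their list held 4 tested genes, of which 3 were called higher and 1 lower with FGF2 at d2.5 (33.5% and 34.1% of all genes). The lower one was Plgrkt, a membrane plasminogen receptor, which went from 28.1 ± 0.527 to 21.5 ± 0.775 CPM (SD, n = 3). All 4 tested genes of that list fell with the knockdown at d5, a direction called for 16.1% of all genes, Plgrkt the most, by 0.36 on the log2 scale (adjusted p = 0.000908). Eno1 is also on that list and has near-identical copies, so its counts are uncertain.

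Lrp1 fell with FGF2 at d2.5 (log2 -0.90, adjusted p = 9.11e-20) and further with the knockdown (log2 -0.43, adjusted p = 8.32e-10). At d5 FGF2 gave -0.04 (adjusted p = 0.512), and the knockdown raised it (log2 0.39, adjusted p = 1.07e-05). Vldlr, a relative of Lrp1 that also takes up such complexes, fell with FGF2 at d5 (log2 -2.70, adjusted p = 5.75e-11), from 41.7 ± 6.19 to 6.30 ± 1.48 CPM (SD, n = 3). At d2.5 Vldlr ran the other way, at 33.5 ± 0.845 CPM with vehicle and 52.1 ± 1.79 with FGF2 (SD, n = 3). Sort1 (sortilin) fell at d2.5 (log2 -3.36, adjusted p = 2.68e-16), and Sorl1, of the same sorting receptor family, rose with FGF2 at d5 (log2 1.16, adjusted p = 2.93e-08) and fell with the knockdown (log2 -1.37, adjusted p = 9.10e-09).

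Of the surface partners of Plaur, the laminin-binding integrin subunit Itga3 rose with FGF2 on both days (log2 1.42, adjusted p = 5.24e-20 at d2.5, and 1.36, adjusted p = 5.82e-10 at d5). Itgb3, a subunit of the vitronectin receptor, fell with FGF2 at d2.5 (log2 -1.42, adjusted p = 2.63e-08) and rose with the knockdown (log2 1.18, adjusted p = 2.34e-05). Spint2, an inhibitor of the proteases that activate single-chain Plau, had 41 reads over the 3 libraries with FGF2 at d5, 9 with vehicle and 11 with the knockdown. It passed the filter only through the FGF2 libraries, so its log2 fold changes of 2.11 with FGF2 and -1.84 with the knockdown are given with no p. F2rl1 (a protease-activated receptor) rose with FGF2 at d2.5 (log2 2.31, adjusted p = 6.07e-09), Thbd (thrombomodulin) fell at d5 (log2 -1.01, adjusted p = 6.08e-08), and Procr (the protein C receptor) fell with the knockdown at d5 (log2 -1.12, adjusted p = 0.000124).

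Among genes whose proteins plasmin cuts or activates were the largest changes on the lists, of Mmp13 and Hgf. Mmp13, a collagenase of hypertrophic cartilage and bone, went from 54.2 ± 10.3 CPM (SD, n = 3) with vehicle to 0.395 ± 0.0637 with FGF2 at d2.5 (log2 -7.07, adjusted p = 2.72e-24). With the knockdown at d2.5 Mmp13 rose from 17 to 45 reads over the 3 libraries (log2 1.56, adjusted p = 0.0188), to 1.20 ± 0.119 CPM, still far below vehicle. At d5 it rose with the knockdown from 556 ± 22.5 to 1685 ± 176 CPM (log2 1.59, adjusted p = 3.56e-10). Vehicle cells lay between these on that day, at 1092 ± 186 CPM. Mmp14, a membrane collagenase, and Mmp2, a gelatinase, fell with FGF2 at d2.5 (log2 -1.22 and -1.18, adjusted p = 2.21e-24 and 4.47e-24), whereas Lamb1, a laminin chain, rose (log2 1.36, adjusted p = 9.91e-26). Mmp9, another gelatinase, rose with FGF2 at d5 (log2 1.69, adjusted p = 0.000448). Hgf, a growth factor that proteases release from its precursor, had 33 reads over the 3 libraries with vehicle at d5, 15 with FGF2 and 223 with the knockdown. Its level was 0.985 ± 0.247 CPM with vehicle, 0.442 ± 0.113 with FGF2 and 6.68 ± 0.678 with the knockdown (SD, n = 3). Hgf passed the filter at d5 only with the knockdown libraries. Its log2 fold changes there, -1.15 with FGF2 and 3.89 with the knockdown, are therefore given with no p.

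Among the clade B serpins other than Serpinb2, 5 of 13 were tested at d2.5 and 4 at d5. Serpinb1a, an inhibitor of neutrophil proteases, stood at 2.15 ± 0.228 CPM with vehicle and 0.390 ± 0.244 with FGF2 at d2.5 (SD, n = 3), and was tested there only through the vehicle libraries. Serpinb9b fell with the knockdown on both days (log2 -1.13, adjusted p = 0.000626 at d2.5, and -2.25, adjusted p = 0.000311 at d5), where Serpinb2 was higher. Its counts were low: over the 3 libraries it had 115 reads with FGF2 and 46 with the knockdown at d2.5, and 45 and 9 at d5. Reads of these serpins can be split between close paralogs, so their counts are uncertain.

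**Figure D4:**
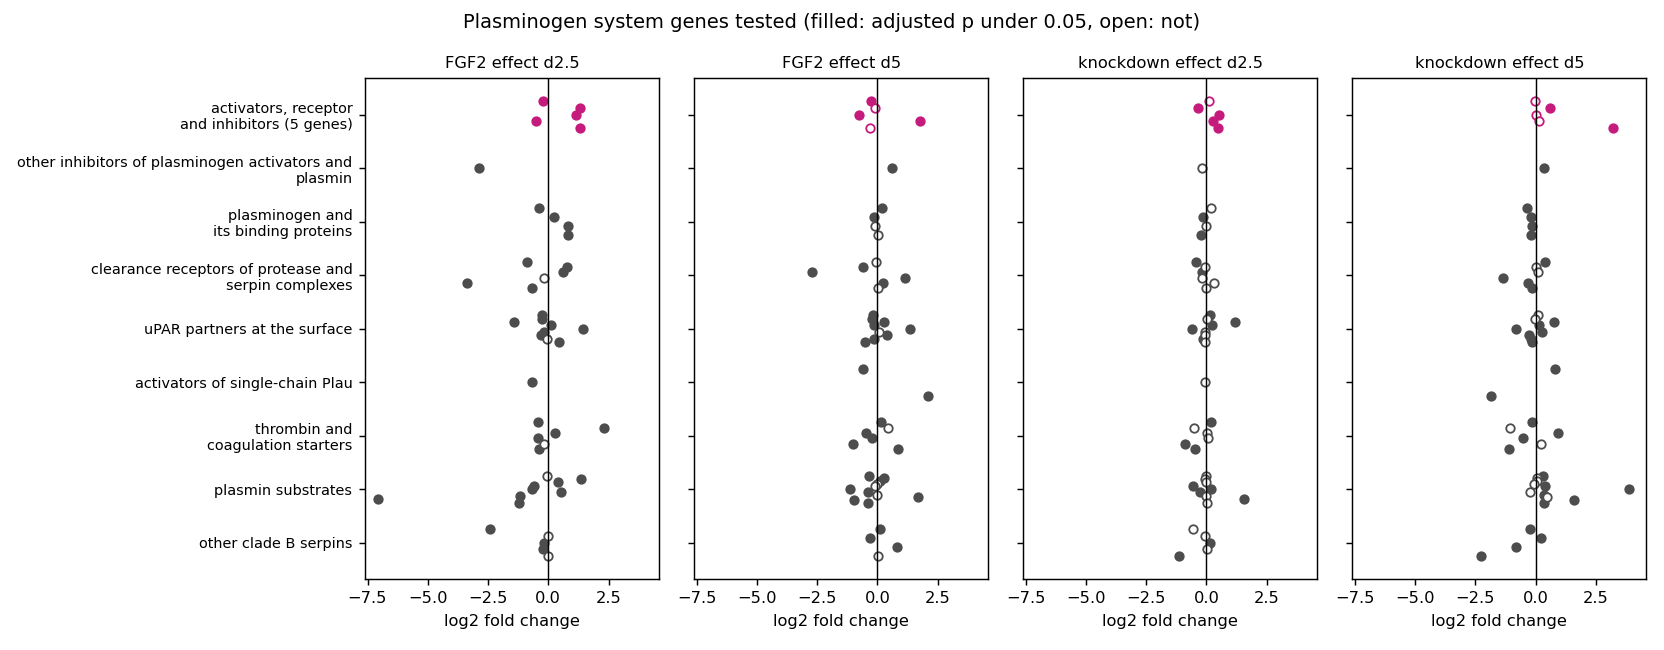
Log2 fold change (horizontal axis) of every tested gene of 8 plasminogen system lists (grey) and of the 5 genes described (pink), in 4 comparisons. Filled points have an adjusted p under 0.05. The point farthest left is Mmp13 (-7.07, FGF2 at d2.5), and the points farthest right in the knockdown at d5 are Hgf (3.89) and Serpinb2 (3.21). Hgf and Serpinb2 passed the filter at d5 only with the knockdown libraries. Spint2 passed it at d5 only with the FGF2 libraries, and Serpinb1a at d2.5 only with the vehicle libraries. The fill of the points of these genes on those days carries no weight.

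Across the 18 libraries the 5 genes did not run together. Pearson's r of log2 CPM was highest for Plat and Serpine2 (0.60) and lowest for Plau and Serpine2 (-0.73). Serpinb2 ran against Plat (-0.68) and Serpine2 (-0.61), and Plaur against its ligand Plau (-0.37). These values are descriptions: the points share 6 groups and the contrast of the days, and with the latter they also share the batch.

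Of 11700 genes searched, those most like each gene over the 18 libraries had the following r. For Plat they were Col4a3bp (0.99), Arhgap10 (0.98) and Col8a1 (0.98), and for Serpine2 Ldhb (0.99), Smarce1 (0.99) and Exoc3l4 (0.98). For Serpinb2 they were Cdc14b (0.98), Ubash3b (0.97) and Gda (0.97), and for Plaur Arl4c (0.93), Pacsin2 (0.92) and Rap1gap (0.92). Plau, which moved least, had the weakest matches, Prdm9 (0.85), Rpn1 (0.84) and Scd2 (0.83).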

How the data were processed

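Poly(A) RNA of 18 libraries was analysed. The authors deposited raw gene counts per library, without normalization, in the column layout of STAR. The submitters' processing notes name FastQC, STAR, Picard, featureCounts and mm10, without versions. The reverse strand column was used, which held 96.0% to 96.6% of stranded counts. Entries that name no gene (27.0% to 34.4% of a library) were left out. Of 55335 identifiers, 55154 matched GENCODE M21 on GRCm38 when version suffixes were ignored.

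The test was edgeR's quasi-likelihood test (version 4.0.16 under R 4.3.3) with TMM scaling, filterByExpr and Benjamini-Hochberg adjustment, run on the 9 libraries of each day and on all 18 for differences between days. DESeq2 1.42.0 was an alternative. Every adjusted p printed here comes from edgeR unless DESeq2 is named. The 95% intervals given for ratios of counts hold counting error alone. Libraries of a group differed by more than sampling noise (chi-square per degree of freedom of 1.25 to 6.41). The genes, lists and tests were chosen with earlier results of these data known. Beyond the 5 genes, Plg and Lrp1 were named whatever their values, with every listed gene called at an absolute log2 fold change of at least 1 in an FGF2 or knockdown effect. Likeness was searched where the average log2 CPM reached 1 or more (prior count 2). The union of exons as gene length was added after seeing the data. S100a10, Anxa2, Plgrkt and Eno1 were named after their values were seen. Some genes of the system are not reported here and were left out of the lists.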

Additional observations from a re-analysis of the deposited data

Results flagged for a closer look

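In 6 cases the effect of a treatment differed between d2.5 and d5, by a test of the difference itself in a fit of all 18 libraries with edgeR (3 libraries per group, log2 scale, d5 minus d2.5). For FGF2 the differences were -1.43 for Plaur (SE 0.142, adjusted p = 5.6e-10), -1.94 for Plat (SE 0.123, adjusted p = 3.2e-14) and 2.26 for Serpine2 (SE 0.162, adjusted p = 4.7e-13). For the knockdown they were 0.97 for Plaur (SE 0.131, adjusted p = 2.4e-06), -0.50 for Plat (SE 0.110, adjusted p = 0.0014) and 2.73 for Serpinb2 (SE 0.498, adjusted p = 0.00016). Of these, the effect itself was called in opposite directions on the 2 days for Plat and Serpine2 under FGF2 and for Plaur under the knockdown. A day is also a batch in the labels, and a batch that altered the response to a treatment cannot be told apart from the day.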

How the results depend on the processing

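Over 40 gene results and 786 alternatives, no called value changed sign: 763 stayed on the same side of the threshold, 17 lost the call and 6 gained it. Values that were not called could change sign. The FGF2 effect on Plaur at d5 ran from -0.22 to 0.08 with each library left out in turn. Plau lost its calls most often, as given beside its values, and against vehicle at d5 (log2 -0.30, adjusted p = 0.0135) without Ctrl+vehicle replicate 3 (0.0662) or Y/T dKD+FGF2 replicate 2 (0.0504) or 3 (0.0566). Its 3 calls also failed a threshold of 0.01. The count of genes called for the knockdown at d5 was 1 in place of 2 when at least 10 counts were required in every library, since Serpinb2 was then not tested. Without the filter on low counts, Serpine2 was called there (log2 0.14, adjusted p = 0.018). Leaving out each library in turn gave 4 to 5 called genes for FGF2 and 4 to 4 for the knockdown at d2.5, and 2 to 3 for each at d5. The other settings, such as DESeq2 or the fit of all 18 libraries, gave wider ranges for the knockdown. They gave 4 to 5 for FGF2 and 3 to 4 for the knockdown at d2.5, and 2 to 3 and 1 to 3 at d5. Replicate numbers gave little sign of pairing: deviations of same-numbered libraries correlated above 0.1 in 0 of 9 pairs at d2.5 (-0.0820 to 0.0425) and 2 of 9 at d5 (-0.0629 to 0.157). Those 2 pairs both joined vehicle with FGF2 libraries (0.145 for replicate 1 and 0.157 for replicate 2, with 0.0273 for replicate 3). A weak pairing of these groups at d5 is therefore not excluded. With the replicate number as a block, 5, 4, 3 and 2 genes were called for FGF2 and the knockdown at d2.5 and at d5, and no call of the 40 gene results changed. Low counts limit Serpinb2 at d5 in the control groups (1 to 6 reads a library).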
